A study of Mus musculus with 6 samples.

Results

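The genes described here are 10 mouse genes of the AP-1 transcription factor and the immediate early response: the Fos family (Fos, Fosb, Fosl1 and Fosl2), the Jun family (Jun, Junb and Jund), the transcription factor gene Egr1, Ier2, and Dusp1. They were taken from the count table by name and are 10 of the 56748 genes counted. All 10 passed the filter on low counts, which left 17717 genes for testing. RNA was sequenced from primary stromal cells that had spent 48 h on collagen that carried ACLP (col1-ACLP, 3 libraries) or on collagen alone (col1, 3 libraries). ACLP is a secreted protein of the extracellular matrix that binds collagen. It was supplied here at 30 nM, as a recombinant mouse protein with a myc tag made in AD293 cells, a derivative of the HEK293 line, and was present while the collagen polymerized. Both groups were WT cells from male and female C57B1/6 mice (the strain as the labels spell it) aged 12 weeks, and both were plated on 12 kPa hydrogels with type I collagen at 0.05 mg/mL. The cells were the unsorted stromal vascular fraction of gonadal white fat, plated straight after digestion of the tissue with collagenase.

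AP-1 is a pair of proteins held together by leucine zippers, formed by 1 Jun protein with another Jun protein or with a Fos protein, that binds short DNA sites in the control regions of its target genes. The genes of many of its subunits are immediate early genes: growth factors, serum, stress, attachment to matrix and the dissociation of tissue raise their transcription through MAP kinases and the factors SRF, Elk and CREB, without new protein synthesis, and their mRNAs are short-lived. DUSP1 is a phosphatase that removes the activating phosphates from the MAP kinases p38, JNK and ERK and so acts as feedback on the same pathway. In fibroblasts AP-1 is known for control of proliferation, matrix proteases and the response to wounding.

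To show the control DNA of the 3 genes whose libraries did not overlap between the groups, the bases directly upstream of their RefSeq start sites are given below, read 5′ to 3′ on the strand of the gene. Coordinates are those of an exact match in GRCm39, and exonic bases of the annotation were left out at the 3′ end. The RefSeq start of Dusp1 lies inside the longer span that the count table gives the gene. Capitals mark, in Dusp1, the letters TGACGT and the full cyclic AMP response element TGACGTCA, which CREB and ATF proteins bind. In Fos they mark the element core TGACGT and the TATA box TATAAA. In Jun they mark the variant AP-1 site TGACATCA.
Dusp1 (chr17:26727507-26727696, minus strand): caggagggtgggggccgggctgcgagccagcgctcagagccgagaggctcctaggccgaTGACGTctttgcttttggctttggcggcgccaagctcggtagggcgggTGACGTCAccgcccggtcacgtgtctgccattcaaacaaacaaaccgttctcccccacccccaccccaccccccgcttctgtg
Fos (chr12:85520414-85520657, plus strand): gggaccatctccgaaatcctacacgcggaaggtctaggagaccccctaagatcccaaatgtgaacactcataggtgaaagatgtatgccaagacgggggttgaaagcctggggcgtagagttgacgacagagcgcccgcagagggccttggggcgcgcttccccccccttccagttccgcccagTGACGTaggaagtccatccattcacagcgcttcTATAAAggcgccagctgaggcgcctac
Jun (chr4:94940460-94940709, minus strand): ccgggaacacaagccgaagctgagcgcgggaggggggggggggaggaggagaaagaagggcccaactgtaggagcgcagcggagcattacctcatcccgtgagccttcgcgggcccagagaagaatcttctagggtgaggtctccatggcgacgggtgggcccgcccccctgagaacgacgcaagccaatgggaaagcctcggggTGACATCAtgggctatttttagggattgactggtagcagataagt

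Of the 10 genes, 7 were in the RefSeq promoter table (assembly GRCm38.p6), and Fosl1, Egr1 and Ier2 were not. Each motif was searched as exact letters in the 250 bases upstream of 32851 start sites, on both strands except for the TATA box, which was searched on the strand of the gene. The full element TGACGTCA was in 1.55% of all these windows and, among the 7 genes, in that of Dusp1, with its first base 143 bases upstream of the start. The shorter core TGACGT, which the full element contains, was in 6.47% of windows and was found in Dusp1 and, with its first base 66 bases upstream, in Fos. TGACATCA was in 2.93% of windows and lay 45 bases upstream in Jun, and TATAAA was in 7.59% and lay 33 bases upstream in Fos. GCGGGGGCG, a site of EGR proteins, was in 2.57% of windows and was found in those of Fosb and Fosl2. The Fosl2 window (chr5:32293566-32293815) lay inside the span that the count table gives the gene, and began in an annotated exon of it. The Jund window ended at chr8:71150388, before the 71151599 at which the count table starts the gene. The AP-1 site TGAGTCA (4.46% of windows) and the CArG box bound by SRF (1.47%) were in 0 of the 7 windows. These matches describe letters in 1 short window and say nothing of binding in these cells. Bases further upstream were not searched, nor were Fosl1, Egr1 and Ier2, so the 0 covers these 7 windows alone.

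Dusp1 was the 1 gene of the 10 that was called lower on col1-ACLP, by the thresholds given below. Its level was 135, 154 and 163 CPM in col1-ACLP libraries 1, 2 and 3, against 242, 242 and 221 CPM in col1 libraries 1, 2 and 3, where CPM is the count relative to the library total after the libraries were scaled by trimmed mean of M-values (TMM). Every col1-ACLP library lay below every col1 library, and the highest col1-ACLP library remained well under the lowest col1 library. The means were 150.5 ± 14.3 CPM on col1-ACLP and 235 ± 12.0 CPM on col1 (SD, n = 3 each). In edgeR's quasi-likelihood test over all tested genes the log2 fold change was -0.64 ± 0.10 (SE, 95% interval -0.86 to -0.42), with a Benjamini-Hochberg adjusted p of 0.00274, and Dusp1 ranked 65 by p among the 17717 genes. That is 0.640 times the col1 level (0.551 to 0.745). Nothing in the labels says that the replicates are separate animals or cultures, and p-values are therefore about the spread of these libraries, technical spread included. The study calls them biological replicates. The counts behind the Dusp1 values were 5370 to 6808 on col1-ACLP and 8151 to 11635 on col1. Following the thresholds used in the study, a gene counts as called higher or lower if its adjusted p is under 0.05 and its log2 fold change lies beyond 0.58 in either direction. Of all tested genes 1.38% were called in either direction, and 0.722% were called lower. Without col1-ACLP library 1, the lowest library, the log2 fold change was -0.571, which missed the fold minimum, with an edgeR adjusted p of 0.0101.

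**Figure D1:**
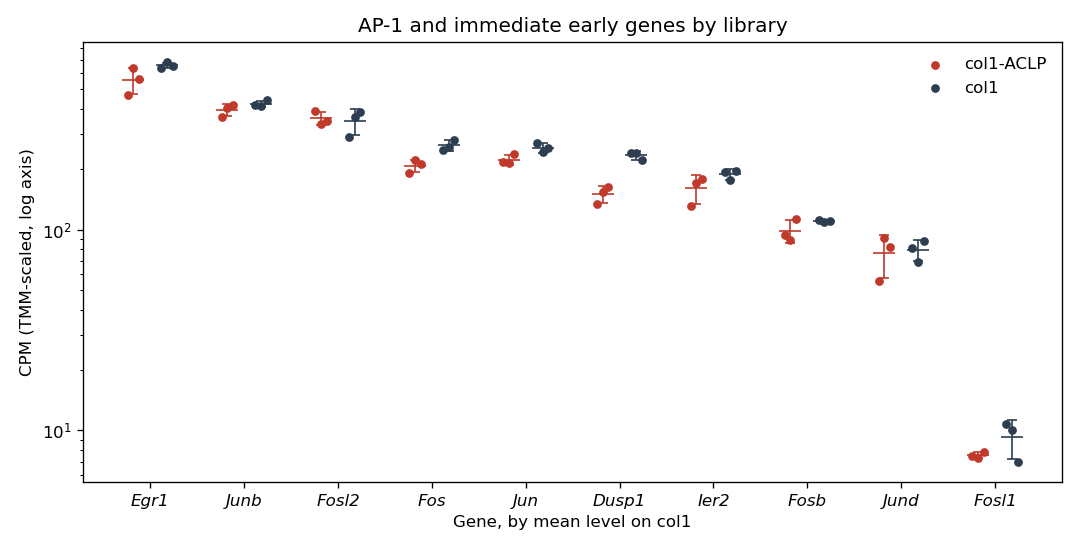
Level of each of the 10 genes in CPM (TMM-scaled, log axis). For each gene the 3 col1-ACLP libraries stand left and the 3 col1 libraries right. Each point is 1 library, drawn with the group mean and SD. The Dusp1 points lie between 135 and 163 CPM on col1-ACLP and between 221 and 242 CPM on col1, and the groups are also apart in Fos and Jun.

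The Fos family encodes the subunits that can bind DNA only with a partner such as a Jun protein. Fos, the founding member, had 192, 221 and 212 CPM in the col1-ACLP libraries, against 250.1, 259 and 280.5 CPM in the col1 libraries. The groups did not overlap, and all 3 col1-ACLP libraries lay below the lowest col1 library. The means were 209 ± 14.8 CPM on col1-ACLP and 263 ± 15.7 CPM on col1 (SD, n = 3 each), a log2 fold change of -0.33 ± 0.10 (95% interval -0.54 to -0.13). The edgeR unadjusted p was 0.00367 and the adjusted p 0.0986, so Fos was not called. With DESeq2 the adjusted p was 0.0186, under the threshold, at a fold change below the minimum. By DESeq2 2.36% of all tested genes were lower at the adjusted p alone. Over the 14 alternative settings the adjusted p of Fos ran from 0.0186 to 0.311 and its log2 fold change stayed below 0, between -0.379 and -0.281.

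Fosb, which encodes FosB and the shorter ΔFosB, had 94.3, 88.4 and 113 CPM in the col1-ACLP libraries, against 111, 109 and 110.5 CPM in the col1 libraries. The col1 libraries were nearly level, and the third col1-ACLP library lay above all of them (log2 fold change -0.16 ± 0.11, edgeR adjusted p = 0.551). Fosl1, the gene of FRA1, was the least expressed of the 10, at 7.45, 7.29 and 7.82 CPM on col1-ACLP, against 10.8, 10.1 and 6.96 CPM on col1. Here the third col1 library was the lowest of all 6 and the groups overlapped (-0.30 ± 0.20, edgeR adjusted p = 0.531). Fosl2, the gene of FRA2, had 390.2, 338 and 348 CPM on col1-ACLP, against 288, 365 and 388 CPM on col1. It was the 1 gene of the 10 with a log2 fold change above 0 (0.05 ± 0.11, 95% interval -0.19 to 0.29, edgeR adjusted p = 0.905), and the sign was negative without col1-ACLP library 1 (-0.018) or without col1 library 1 (-0.071).

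Jun, the gene of c-Jun and a substrate of JNK at the protein level, had 216, 214 and 237 CPM in the col1-ACLP libraries, against 271, 242 and 255 CPM in the col1 libraries. The groups did not overlap, though the highest col1-ACLP library came close to the lowest col1 library. The log2 fold change was -0.20 ± 0.10 (95% interval -0.41 to 0.00), with an edgeR unadjusted p of 0.0520 and an adjusted p of 0.342. Junb, whose protein often opposes c-Jun in cell cycle control, had 365, 406 and 419 CPM on col1-ACLP, against 416, 412 and 441 CPM on col1. Its libraries overlapped (-0.09 ± 0.10, edgeR adjusted p = 0.725). Jund, the member that is expressed most steadily in resting cells, had 55.4, 90.5 and 82.3 CPM on col1-ACLP, against 81.0, 68.7 and 87.9 CPM on col1. Its lowest and its highest library were both on col1-ACLP, the widest spread within a group among the 10 genes, with a highest value 1.63 times the lowest. The log2 fold change was -0.06 ± 0.15 (edgeR adjusted p = 0.914), and it was above 0 without col1-ACLP library 1 (0.124) or without col1 library 3 (0.014).

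Egr1 encodes a zinc finger transcription factor that responds to serum and growth factors. It had 469.9, 638 and 562 CPM in the col1-ACLP libraries, against 636, 681 and 656 CPM in the col1 libraries. The groups overlapped by a narrow margin, since col1-ACLP library 2 lay just above the lowest col1 library, and the first col1-ACLP library was far below the rest. Its log2 fold change was -0.24 ± 0.11 (95% interval -0.47 to -0.01), with an edgeR unadjusted p of 0.0425 and an adjusted p of 0.314. Ier2, an immediate early gene that encodes a nuclear protein, had 131, 171 and 179 CPM on col1-ACLP, against 193, 176 and 197 CPM on col1. Again col1-ACLP library 1 was the lowest and the other col1-ACLP libraries reached or neared the col1 range (-0.23 ± 0.12, 95% interval -0.48 to 0.02, edgeR adjusted p = 0.376).

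**Figure D2:**
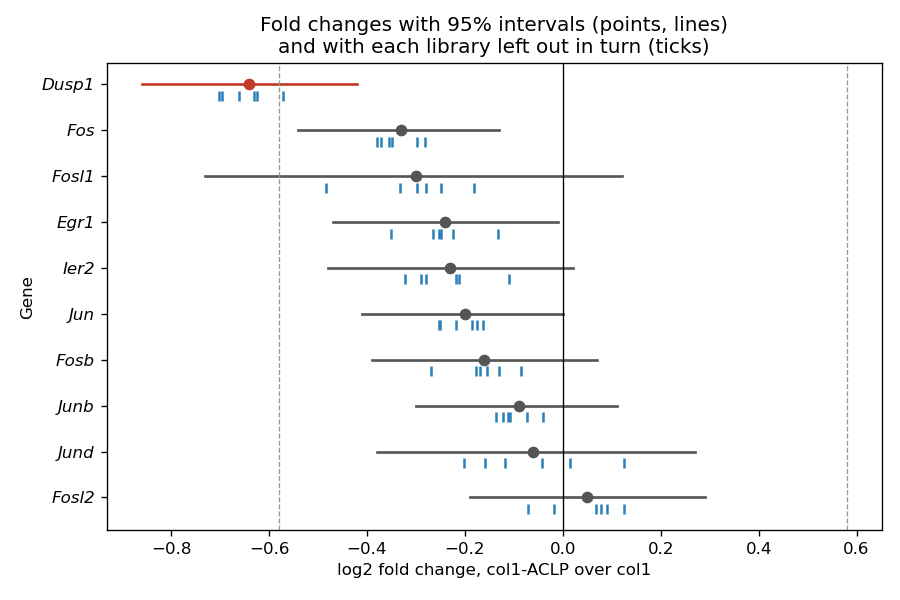
Log2 fold change of each of the 10 genes, col1-ACLP over col1 (edgeR, n = 3 libraries each), with 95% intervals and the fold minimum of 0.58 in either direction as dashed lines. Dusp1 lies at -0.64 and is the 1 gene past the minimum, Fosl2 lies at 0.05, and the other 8 lie between -0.33 and -0.06.

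In all, 9 of the 10 genes had a log2 fold change below 0, against 48.9% of all tested genes, and the median over the 10 was -0.22, against 0.008 over all tested genes. The count of 9 was the same under every other scaling, filter and test tried, and was 8 to 10 when 1 library was left out. Past both thresholds 1 gene was lower and 0 were higher, against 0.722% and 0.66% of all tested genes, and the higher count was also 0 with DESeq2 and limma-voom. Without the fold minimum Dusp1 remained the 1 gene that passed by edgeR, against 1.12% of all tested genes that were lower at the adjusted p. At an unadjusted edgeR p under 0.05 there were 3 genes, Dusp1, Fos and Egr1, all lower, against 7.26% of all tested genes that were lower at that p. The groups did not overlap in 3 genes, Dusp1, Fos and Jun, again all lower, against 10.2% of all tested genes that lay lower without overlap. The 10 genes respond to the same signals and are measured in the same libraries, so they are not independent of each other. Of the 7 genes below 0 besides Dusp1 and Fos, 6 had 95% intervals that reach below the -0.33 of Fos, and that of Junb ended at -0.30, and 5 of those 6 intervals, all but that of Egr1, also held 0.

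The low values were not spread evenly over the col1-ACLP libraries. Col1-ACLP library 1 held the lowest value of all 6 libraries for 6 of the 10 genes (Fos, Junb, Jund, Egr1, Ier2 and Dusp1), and col1-ACLP library 2 for Fosb and Jun. In total 8 of the 10 genes had their lowest value in a col1-ACLP library and 7 had their highest in a col1 library. Without col1-ACLP library 1 the median over the 10 genes was -0.13 and 0 of the 10 were called. Leaving out another library gave medians between -0.26 and -0.17. Its total of 39936414 counts lay within the range of the other libraries. It had the highest summed level of stromal markers, 33430 CPM against at most 27590 CPM in the others, and the lowest of endothelial markers, 827 CPM. Most of that stromal sum came from Col1a1 (10470 CPM), Col1a2 (7066 CPM) and Col3a1 (11520 CPM). Those genes, Pdgfra and Pdgfrb were highest in this library, whereas Thy1, Ly6a and Cd34 were lowest in it. Of the endothelial markers, Cdh5, Kdr and Tek had their lowest value in another library. Col1-ACLP libraries 1 and 2 formed the least similar pair of replicates (chi-square per degree of freedom 69.1, against at most 37.9 in the other pairs). For col1-ACLP libraries 1 and 3 that value was 29.2. The mitochondrial share of counts was highest in col1-ACLP library 2, at 6.14% against 2.91 to 4.27% in the others. The part of these differences in the low values of col1-ACLP library 1 was not tested.

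**Figure D3:**
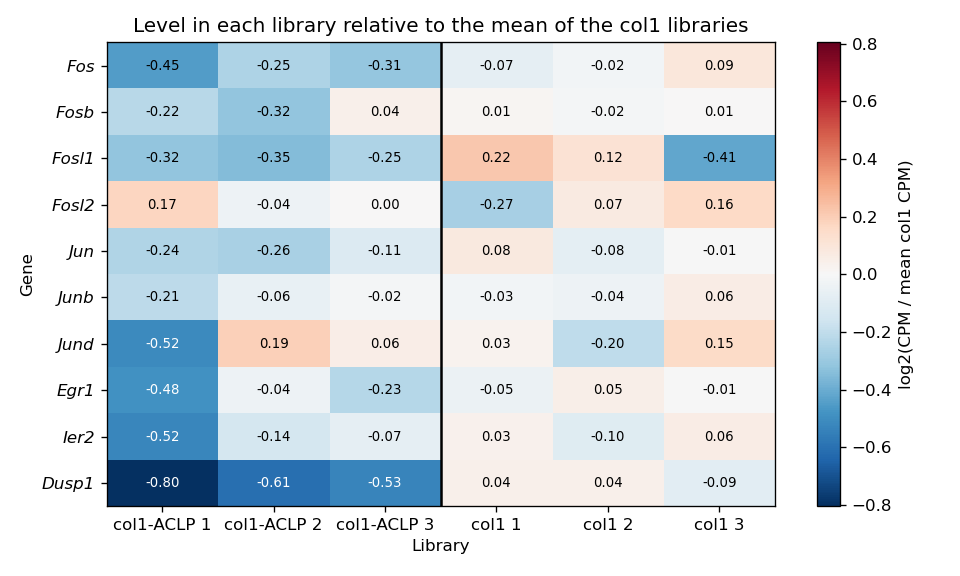
Log2 ratio of each gene's CPM to its mean over the col1 libraries, for the 3 col1-ACLP and the 3 col1 libraries. Col1-ACLP library 1 has the lowest value for 6 of the 10 genes, and Fosl2 has its highest value in that same library.

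To compare levels between genes, counts were divided by the deposited gene length and scaled to the same total in each library (TPM). Junb had the highest level of the 10 at 504 TPM on col1-ACLP and 545 TPM on col1, above 98.5% of tested genes. Egr1 followed at 361 TPM on col1-ACLP and 435 TPM on col1, then Ier2 at 307 and 367, Fos at 259 and 331, and Jun at 204 and 238, in the same order of groups. Dusp1 had 133 TPM on col1-ACLP and 210.4 TPM on col1. The lower part of the order was Jund, Fosl2, Fosb and Fosl1, the last at 10.8 TPM on col1-ACLP and 13.6 TPM on col1. The order of the 10 was the same in both groups. Neighbours whose libraries overlapped were Egr1 and Ier2, Dusp1 and Jund, and Jund and Fosl2 on col1-ACLP, whereas 0 neighbour pairs overlapped on col1. On this scale Dusp1 lay next to Jund on col1-ACLP, at 128 to 142 TPM against 105 to 150 TPM of Jund. On col1 it lay apart, at 193 to 222 TPM against 125 to 153 TPM. The deposited length exceeds the longest annotated transcript for some genes, such as Dusp1 (3311 against 2313 bases), Fosb (6243 against 3782) and Fosl2 (9680 against 6975). For Jun (3189) and Jund (1667) the 2 lengths are equal. The order of genes and the place of Dusp1 beside Jund therefore depend on the length used.

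The make-up of each family was described by the share of each gene in the summed level of its family. Fos supplied most of the Fos family mRNA, at 58.1, 64.1 and 60.9% of the summed TPM on col1-ACLP, against 66.8, 64.7 and 66.1% on col1. Its share was thus lower in each col1-ACLP library than in any col1 library, by a narrow margin. Fosl2 supplied 25.6 ± 2.67% on col1-ACLP and 21.0 ± 2.02% on col1 (SD, n = 3 each). The summed Fos family level was 443, 404 and 428 TPM on col1-ACLP, against 471, 516 and 522 TPM on col1. In the Jun family Junb supplied 59.9 ± 1.01% on col1-ACLP and 59.0 ± 1.46% on col1, followed by Jun at 24.3% and 25.8% in the same order. The summed Jun family level was 817, 821 and 884 TPM on col1-ACLP, against 931, 900.0 and 940 TPM on col1. Both sums lay lower in every col1-ACLP library, and these shares and sums are descriptions with no test. They depend on the deposited gene lengths, as the order of genes does, and count mRNA, not the proteins that form the AP-1 pairs.

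Some of these genes share bases with a neighbour on the other strand, and whether reads were counted by strand is not given in the sources used here. Dusp1 (chr17:26724564-26781102, minus strand, GRCm39) overlaps the start of Ergic1, a gene of the early secretory pathway that had 106% as many counts. Another 4 annotated genes within its span shared 0 of its exonic bases and had at most 0.0971% as many counts. The exons of Dusp1 and Ergic1 share 38 of the 3324 exonic bases of Dusp1, or 1.14%. Ergic1 had 213, 189 and 210.3 CPM on col1-ACLP, against 223, 212 and 189 CPM on col1, with overlapping groups (log2 fold change -0.02 ± 0.10, edgeR adjusted p = 0.953). The 95% interval of Ergic1, -0.24 to 0.19, did not reach the -0.64 of Dusp1, though reads of Ergic1 could add to the counts of Dusp1.

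Jun (chr4:94937271-94940459, minus strand) shares 528 of its 3189 exonic bases with Junos, an antisense long noncoding RNA that had 1.52% as many counts. Junos had 2.58, 2.22 and 2.01 CPM on col1-ACLP, against 5.81, 5.08 and 4.05 CPM on col1. The groups did not overlap, and the log2 fold change was -1.13 ± 0.27 (95% interval -1.71 to -0.55, edgeR adjusted p = 0.0408), past both thresholds. This call was lost with limma-voom (adjusted p = 0.0624) and whenever 1 library was left out (edgeR adjusted p = 0.0527 to 0.169). Junos reads and Jun reads of the shared stretch cannot be told apart without strand. Fosl1 (chr19:5497575-5505974) shares 57.2% of its exonic bases with Ccdc85b, which had more than its own counts (1095%), so the Fosl1 values are uncertain. Ccdc85b itself had a log2 fold change of -0.30 ± 0.13 (edgeR adjusted p = 0.294). Jund shares 52.6% of its exonic bases with Gm11175, on the opposite strand, which had 0 counts in all 6 libraries. Of its longest transcript Jund shares 70.5% with 2 other annotated genes, Gm11175 among them. By that measure Fosl1 shares 75.6%. Junb shares 7.27% of its exonic bases with Prdx2 (-0.03 ± 0.11, edgeR adjusted p = 0.948). Fos, Fosb and Fosl2 shared at most 6.8% of their longest transcript with other genes, and Egr1, Ier2 and Dusp1 shared 0%.

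**Figure D4:**
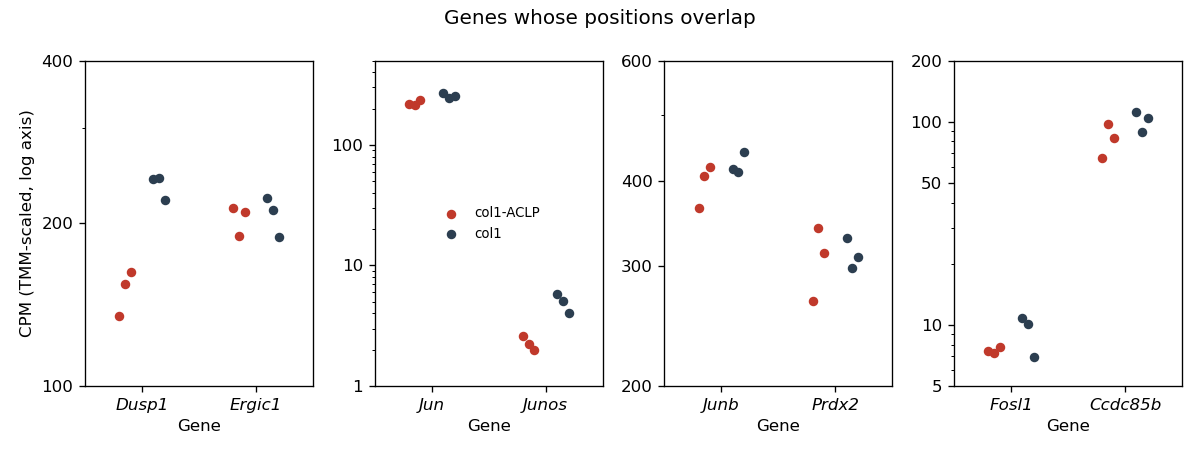
CPM (TMM-scaled, log axis) of Dusp1, Jun, Junb and Fosl1, each beside the gene it overlaps (Ergic1, Junos, Prdx2 and Ccdc85b), with 1 point per library, col1-ACLP left of col1. Dusp1 is apart between the groups while Ergic1 overlaps, and Junos lies at 2.01 to 2.58 CPM on col1-ACLP and 4.05 to 5.81 CPM on col1.

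To place these 10 genes in their pathway, 6 further lists were read in the same way, by how many genes were called and by the median log2 fold change. Among 28 other immediate early genes 1 was called lower and 0 higher, with a median of -0.10 and 19 genes below 0. The gene called was Klf2, a transcription factor gene known for its response to fluid flow in endothelial cells, at 31.6, 43.0 and 43.1 CPM on col1-ACLP, against 61.0, 58.9 and 62.4 CPM on col1. Its groups were well apart (-0.63 ± 0.13, edgeR adjusted p = 0.0159), but the call was lost without col1-ACLP library 1 (adjusted p = 0.0606) or without col1 library 3 (0.0702). Btg2, which restrains proliferation, and Zfp36, whose protein speeds the decay of AU-rich mRNAs, passed the adjusted p but not the fold minimum and were chosen after their values were seen. Btg2 had a log2 fold change of -0.51 ± 0.12 (edgeR adjusted p = 0.0330) and Zfp36 one of -0.48 ± 0.11 (edgeR adjusted p = 0.0341). The list did not move 1 way: 15 of its genes were at an unadjusted p under 0.05, against 14.9% of all tested genes, and 9 of them were lower, against 7.26% lower and 7.6% higher over all tested genes. Limma-voom called 1 gene higher, Ptgs2, the gene of cyclooxygenase-2, for which the edgeR log2 fold change was 0.75 ± 0.19 (adjusted p = 0.0566). Ptgs2 was likewise chosen after its values were seen.

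Among 15 feedback inhibitors of MAP kinases other than Dusp1, 0 were called lower and 1 was called higher, with a median of -0.03. At an unadjusted p under 0.05 there were 2 genes, 0 of them lower, and DESeq2 and limma-voom likewise called 0 lower. The gene called was Dusp4, which encodes a nuclear phosphatase of the same class as DUSP1. It had 32.6, 29.4 and 27.5 CPM on col1-ACLP, against 19.1, 18.6 and 17.9 CPM on col1. Every col1-ACLP library was above every col1 library (0.69 ± 0.13, edgeR adjusted p = 0.0107), so these 2 phosphatase genes differed between the groups in opposite directions. The Dusp4 call was lost without col1-ACLP library 1 (adjusted p = 0.0582) or without col1 library 3 (0.0599). Dusp5 and Dusp6, phosphatases of ERK, had log2 fold changes of -0.13 ± 0.13 and -0.13 ± 0.14 and were not called. Both were chosen for their role, outside the rule for named genes.

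The partners with which Fos and Jun proteins can pair, 12 genes of the ATF, BATF, JDP and MAF groups, held 0 called genes by edgeR, DESeq2 or limma-voom, with a median of -0.09 and 2 genes at an unadjusted p under 0.05. Those were Atf3, a stress-induced factor, at 22.8, 26.5 and 21.4 CPM on col1-ACLP against 28.7, 29.9 and 36.1 CPM on col1 (-0.42 ± 0.14, edgeR adjusted p = 0.146), and Batf. Batf, best known from lymphocytes, had 1.20, 2.76 and 0.978 CPM on col1-ACLP, against 3.88, 3.16 and 2.88 CPM on col1 (-1.0 ± 0.39, edgeR adjusted p = 0.232). It passed both thresholds only when col1-ACLP library 2 was left out (-1.596, edgeR adjusted p = 0.0363). Among 23 genes of the kinases and factors that act upstream, 0 were called by any of these 3 tools, with a median of 0.08 and 3 genes at an unadjusted p under 0.05, 0 of them lower. The smallest p was that of Map2k1, the gene of the ERK kinase MEK1 (0.38 ± 0.10, edgeR adjusted p = 0.0712). Its adjusted p was 0.0102 with DESeq2 and 0.0435 with limma-voom, under the threshold, at a fold change below the minimum. With 1 library left out its edgeR adjusted p was 0.0531 to 0.253.

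Genes known as AP-1 targets moved in both directions. Of 16 tested, 1 was called higher and 0 lower, with a median of 0.01, and of the 7 at an unadjusted p under 0.05, 3 were lower. DESeq2 and limma-voom also called 1 higher and 0 lower. The gene called was Timp1, an inhibitor of matrix metalloproteinases, at 2174, 2797 and 2370 CPM on col1-ACLP, against 1671, 1375 and 1705 CPM on col1. Every col1-ACLP library was above every col1 library (0.63 ± 0.11, edgeR adjusted p = 0.00633), and the fold minimum was missed without col1-ACLP library 2 (0.521) or without col1 library 2 (0.526). By contrast the protease genes Mmp3 (-0.57 ± 0.10, edgeR adjusted p = 0.00446) and Plau (-0.53 ± 0.10, edgeR adjusted p = 0.00969) were lower at the adjusted p without reaching the fold minimum. Mmp3 passed both thresholds with scaling by library totals (-0.608) and without col1-ACLP library 1 (-0.591), col1 library 1 (-0.586) or col1 library 2 (-0.644), and Plau without col1 library 2 (-0.599). Both were chosen after their values were seen. Heat shock genes, which encode chaperones and rise with heat and misfolded protein, held 0 called genes of 10 by these 3 tools, with a median of 0.09 and 1 gene at an unadjusted p under 0.05. Hspa1a (-0.40 ± 0.17, edgeR adjusted p = 0.276) and Hspa1b (-0.21 ± 0.11, edgeR adjusted p = 0.381) are near-identical copies, so their separate values are uncertain.

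**Figure D5:**
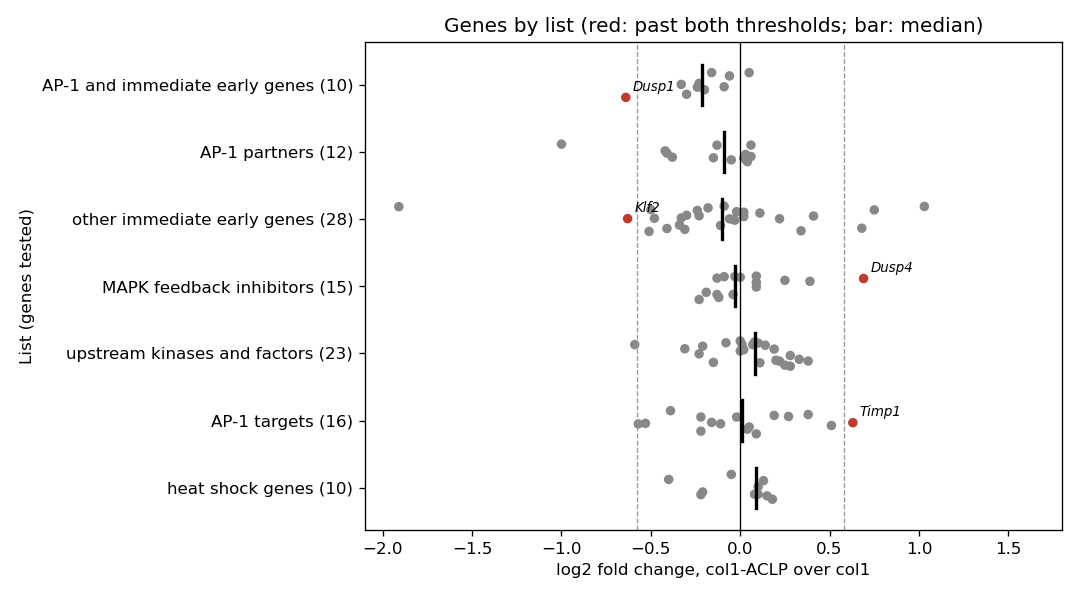
Log2 fold change, col1-ACLP over col1, of each tested gene of the 10-gene set and of the 6 further lists, 1 point per gene, with the median of each list as a bar. Red points passed both thresholds: Dusp1 and Klf2 lie below 0, and Dusp4 and Timp1 above.

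The libraries held 37389976 to 45155866 counts on col1-ACLP and 33343651 to 47142754 on col1, so the totals overlapped. An exact permutation test of the totals, 3 against 3 libraries, was run but cannot give a p under 0.1, so nothing is drawn from it. A gene with 3 counts lies at 0.0624 to 0.0889 CPM, far below each of the 10 genes. The share of counts from 18S ribosomal RNA was 0.479 to 0.579% on col1-ACLP and 0.251 to 0.326% on col1, without overlap, and its part in the levels of the 10 genes was not tested. All 10 stromal markers listed passed the filter, with a summed level of 22990 to 33430 CPM on col1-ACLP and 20730 to 24230 CPM on col1. Within that list Col1a1, the gene of a collagen I chain, was called higher (log2 fold change 0.79), and Ly6a (-0.68) and Cd34 (-0.65), markers of progenitor cells, were called lower. Macrophage markers summed to 649 to 728 CPM on col1-ACLP and 639 to 756 CPM on col1, and endothelial markers to 827 to 1014 CPM on col1-ACLP and 918 to 1097 CPM on col1, so the cells labelled mesenchymal were a mixture. Mast cell markers summed to 28.7 to 36.4 CPM on col1-ACLP and 39.5 to 43.9 CPM on col1 without overlap, and 3 of the 4 tested were called lower: Tpsb2 (log2 fold change -1.56), Mcpt4 (-3.18) and Cma1 (-1.88). The fourth, Kit, had -0.04. DESeq2 did not call Mcpt4, which had 5 to 12 counts on col1-ACLP, and limma-voom did not call Cma1. Of the 7 mesothelial markers, which had a median of -0.35, Upk3b was called lower (-0.93, edgeR adjusted p = 0.0396) and Krt8 was lower at the adjusted p alone (-0.53). The rest were not called: Msln (-0.46), Krt18 (-0.35) and Krt19 (-0.01) lay below 0, and Wt1 (0.24) and Lrrn4 (0.1) above. Mural, mesothelial and adipocyte marker sums overlapped between the groups, as did those of the lymphocyte markers (0.380 to 0.861 CPM on col1-ACLP and 0.541 to 1.64 CPM on col1, with Ms4a1 at 0 counts throughout). In bulk RNA fewer cells of a type cannot be told apart from less RNA per cell, and the part of these cell types in the levels of Dusp1, Fos and the other genes was not tested.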

How the data were processed

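The deposited values are raw counts, whole numbers of reads per gene, in 1 table with 1 column per library, which the authors made from polyA-selected paired-end libraries. HISAT2 was the aligner. For the build, mm10 stands in the submitters' notes and GRCm39 in the study's methods. GENCODE vM39 of GRCm39 held 56017 of the 56748 identifiers, with the chromosome equal for 100% and the start no more than 1000 bases away for 92.01%, and positions were taken as GRCm39. How reads were counted (program, strand, reads with several positions) is not given in the sources used here.

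Columns were assigned from the names quoted in the labels, and 0 other per-sample columns were present. Replicates differed beyond sampling noise (chi-square per degree of freedom 24.4 to 69.1 over pairs), and each library was treated as 1 replicate. Technical spread can also exceed sampling noise, so these values do not show that the replicates are separate animals or cultures. Genes were filtered with filterByExpr (minimum count 10, minimum total 15), normalized by TMM and tested with edgeR 4.0.16 (glmQLFit and glmQLFTest, two-sided, group only) in R 4.3.3, with Benjamini-Hochberg adjustment over 17717 genes. The script was tested on simulated counts first. CPM use TMM-scaled totals and TPM the deposited gene length. Intervals of fold changes cover the fitted spread of the libraries, whereas floors of 3 counts cover counting error only. Alternatives were DESeq2 1.42.0, limma-voom (limma 3.58.1), relative log expression size factors, library totals alone, no filter on low counts, no ribosomal and mitochondrial genes (391 left out), a robust dispersion fit, a replicate block, and each library left out in turn. Upstream windows came from the RefSeq promoter table and were matched to GRCm39 exactly.

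The rule for named genes took all 10 genes, the genes that overlap their exons and, from each further list, every called gene or, where 0 were called, the 2 with the smallest p. Some genes of these lists, 1 of those 2 among the upstream kinases included, are not reported here and were left out of the lists' counts and medians. Genes named outside the rule are marked as such in the text. The 10 genes and the lists were chosen with earlier results of these data known.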

Additional observations from a re-analysis of the deposited data

How the results depend on the processing

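All 10 genes kept their direction when the scaling, the filter or the test was changed, and Dusp1 was called in each of these settings. Leaving out 1 library turned the direction of Fosl2 (-0.018 without col1-ACLP library 1, -0.071 without col1 library 1), of Jund (0.124 without col1-ACLP library 1, 0.014 without col1 library 3), of Ergic1 (0.028 without col1-ACLP library 2, 0.029 without col1 library 1) and of Prdx2 (0.064 without col1-ACLP library 1, 0.013 without col1 library 1). Over the 6 such settings Fosl2 ranged between -0.071 and 0.124, Jund between -0.201 and 0.124, Ergic1 between -0.101 and 0.029, Prdx2 between -0.109 and 0.064 and Dusp1 between -0.703 and -0.571, and the number of the 10 genes called was 0 or 1. At the adjusted p alone, Btg2, Zfp36 and Plau reached 0.159, 0.182 and 0.0672 when 1 library was left out. Without the fold minimum, 2 of the 10 genes passed with DESeq2, Dusp1 and Fos, against 1 with edgeR. The number of all tested genes called was 245. It was 389 with no filter on low counts, where 31605 genes were tested, 350 with DESeq2, and between 148 and 289 with 1 library left out. Libraries of equal replicate number showed no shared deviations from their group means (correlations between -0.0295 and -0.0105). With 3 libraries per group this cannot settle whether the samples were paired. An edgeR fit with a replicate block called 194 genes, with Dusp1 at -0.65 (adjusted p = 0.0141) and Junos no longer called (adjusted p = 0.0725). Scaling by library totals alone put the median of all genes at -0.027.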
